A study of Mus musculus with 4 samples.

Results

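Single nuclei of hearts from wild-type mouse pups that had received saline were compared between 2 maternal diets, chow and a high-fat diet (HFD), with 1 library per diet. The pups were injected at postnatal day 7, the mothers were then on their diet for 5 days, and whole hearts were taken at postnatal day 12. The libraries of the whole series number 4, and the other 2 come from wild-type pups given an adeno-associated virus (AAV9) in which a cardiac troponin T promoter drives YAP5SA, an active form of the co-activator YAP. They enter only the last comparison. The sources used here do not say how many hearts or litters each library holds.

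Diet was taken from the library titles. The treatment label of the library titled control on HFD names chow instead, and its description names the HFD. The same conflict, in the other direction, concerns the YAP5SA library titled chow. If the treatment labels hold, both control libraries came from chow-fed mothers. Below, "chow library" and "HFD library" mean the titles, and each difference is between these libraries.

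Nuclei with at least 500 genes and at most 5% of unique molecular identifiers (UMIs) from mitochondrial genes were kept. A nucleus counted as a cardiomyocyte when Ttn, Ryr2, Trdn, Ctnna3, Rbm20 and Tnnt2 together gave at least 0.8% of its UMIs, and as another cell when they gave under 0.5%. The comparison holds 14585 nuclei, out of 34165 nuclei kept in the whole series. The chow library gave 4024 cardiomyocytes and 2292 other cells, with 57 nuclei between the limits, and the HFD library gave 3659 and 4610, with 128 between. Between 0.7% and 0.9%, around the cardiomyocyte limit, lay 26 chow and 53 HFD nuclei.

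Depth was similar. The libraries held 43408234 and 57509435 UMIs, and the median UMI count per cardiomyocyte was 6118.5 in the chow and 6497 in the HFD library. Malat1, a nuclear long RNA, took 10.6% of cardiomyocyte UMIs in the chow and 8.33% in the HFD library. Levels are counts per 1000000 UMIs of a group's sum (CPM). The 8 cardiomyocyte markers that the nucleus rule did not use, such as Myh6 and Pln, summed to 9770 CPM in the chow and 8427 CPM in the HFD cardiomyocytes, and to 842 and 733 CPM in the other cells. Both libraries read as female: Xist gave 106671 UMIs in the chow and 146049 in the HFD library, while Ddx3y of the Y chromosome gave 1 and 17. The libraries shared 11 cell barcodes, 0.173% of the smaller library. Every difference below has no replicate check: intervals are exact 95% intervals that cover counting error only, and no difference between diets was tested against the spread between animals.

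Suckling pups live on milk fat, and the heart turns to fatty acid oxidation after birth. Fatty acids activate the nuclear receptors PPARalpha and PPARdelta, which switch on genes for fatty acid transport into mitochondria, ketone production, uncoupling and lipid storage. Pdk4 is a classic target of them: its kinase blocks pyruvate dehydrogenase and so spares glucose when fat is burned.

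Cardiomyocytes made up 63.1% of kept nuclei in the chow library (95% Clopper-Pearson interval 61.9 to 64.3) and 43.6% in the HFD library (42.5 to 44.6). With nuclei limited to at most 1% mitochondrial UMIs the shares were 73.6% and 54.5%. A different cell makeup of the hearts and a different recovery of nuclei cannot be told apart here.

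The cardiomyocytes of both libraries barely mixed. Of 22 cardiomyocyte clusters, 4 came at least 90% from the chow library and held 76.1% of its cardiomyocytes, and 3 came at least 90% from the HFD library and held 68.7% of its cardiomyocytes. Of 8789 genes with a mean of at least 10 CPM over both sums, 254 (2.89%) were higher by 2-fold or more in the HFD library and 40 (0.455%) were lower by as much. The median log2 ratio of HFD over chow was 0.01 over these genes. Among the 2936 genes that were at least as abundant in cardiomyocytes as in other cells, 43 (1.46%) were higher by this measure and 36 (1.23%) lower. Genes more abundant in other cells supplied 211 of the higher ones (3.6% of 5853) and 4 of the lower ones (0.0683%).

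**Figure D1:**
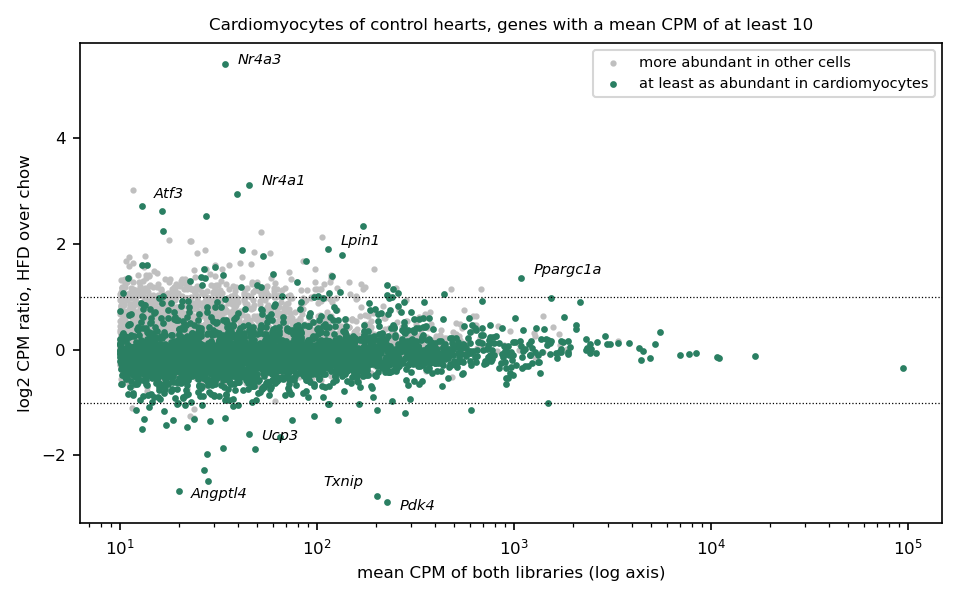
Log2 ratio of CPM (HFD over chow) in control cardiomyocytes against mean CPM of both libraries (log axis), 1 point per gene; green points are genes at least as abundant in cardiomyocytes as in other cells, and dotted lines mark a 2-fold difference. Among the labelled genes, Pdk4, Txnip and Angptl4 lie lowest and Nr4a3 highest, while the grey points spread mainly upwards.

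The 12 lowest genes in the HFD library mixed genes of lipid and glucose use with others, such as Plppr1, Tnni1, Impa2, Irx3 and Smim5. Pdk4 stood at 400 CPM (12008 UMIs) in the chow and 54.65 CPM (1670 UMIs) in the HFD library, a log2 ratio of -2.87 (-2.95 to -2.80) or 7.32-fold lower. It lies on chromosome 6 from 5483351 to 5496309 (minus strand, mm10) and is protein-coding, as are all genes named here unless stated. Txnip, an arrestin-like protein that restrains glucose uptake and follows glucose, stood at 355 and 52.0 CPM, a log2 ratio of -2.77 (-2.85 to -2.69). Both differences reached across the nuclei. After every nucleus was thinned to 2000 UMIs, Pdk4 had a UMI in 46.2% of chow cardiomyocytes (44.7 to 47.8) and 8.96% of HFD cardiomyocytes (8.05 to 9.95), against 71.3% and 21.4% before thinning. In the other cells, which share the droplets' free RNA, the thinned shares were 3.62% and 1.60%. The thinned share of cardiomyocytes with Txnip was 49.9% in the chow and 8.55% in the HFD library. Thinning left out 91 chow and 78 HFD cardiomyocytes that were too shallow.

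Several other listed PPAR targets had the same direction as Pdk4. Angptl4, a secreted inhibitor of lipoprotein lipase, stood at 34.4 CPM in the chow and 5.37 CPM in the HFD library, a log2 ratio of -2.68 (-2.93 to -2.44). Ucp3, a mitochondrial carrier of the uncoupling protein family, stood at 68.0 and 22.5 CPM (log2 ratio -1.59, -1.72 to -1.47). Cpt1a, the form of the outer-membrane carnitine transferase that prevails in liver and fetal heart, stood at 137 and 57.6 CPM (log2 ratio -1.25, -1.34 to -1.17). Slc25a20, the carnitine carrier of the inner membrane, stood at 54.0 and 26.1 CPM. The lipid droplet genes Plin2 (44.9 and 23.3 CPM) and Plin5 (23.1 and 13.7 CPM) were lower too. All of these levels were below those of the chow library beyond counting error.

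Of the 25 listed PPAR targets of lipid droplets, ketogenesis and uncoupling, 17 reached 10 CPM. None was at least 1.5-fold higher and 10 were at least 1.5-fold lower, where 8.02% and 2.31% of all genes tested were. Their median log2 ratio was -0.87. The other 8 lay under the minimum. This list was chosen with earlier results of these data known, so its count describes the members and tests nothing. The receptor itself differed the other way: Ppara stood at 275 CPM in the chow and 366 CPM in the HFD library (log2 ratio 0.41, 0.37 to 0.46). In the other cells the list held 10 genes at the minimum, of which 2 were at least 1.5-fold lower (0.986% of all genes there), with a median of -0.07. Txnip, which this list counts although it follows glucose, stood at 160 and 77.4 CPM in other cells.

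**Figure D2:**
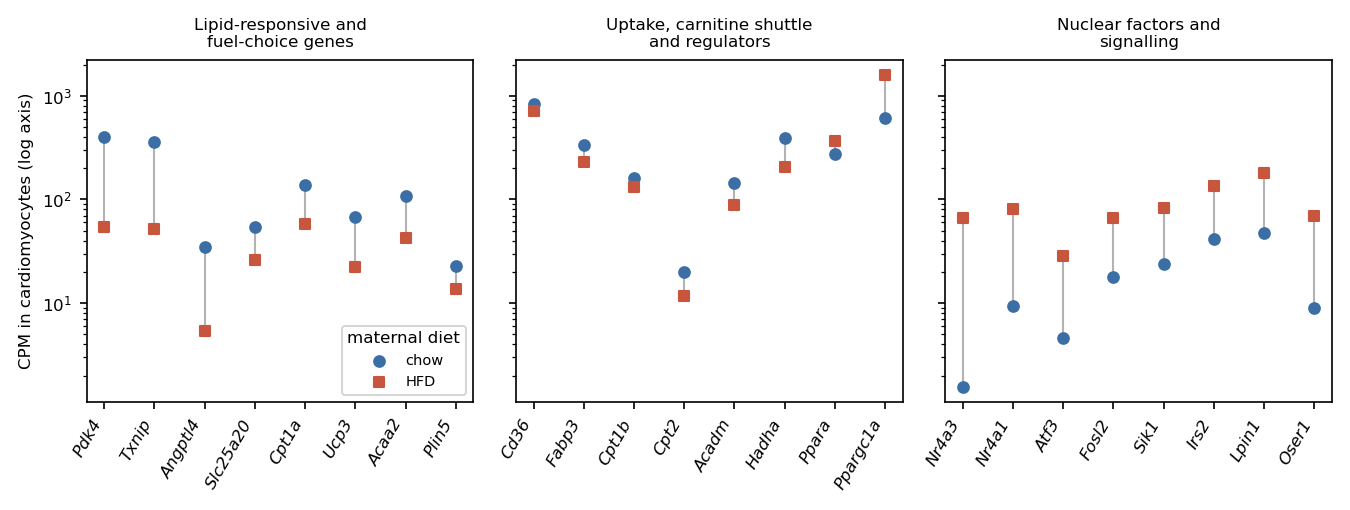
CPM in cardiomyocytes (log axis) of 24 genes in the chow library (circles) and the HFD library (squares), 1 library each, so no error bar is drawn. Pdk4, Txnip and Angptl4 have the longest drops, Cd36 and Cpt1b lie close together, and Nr4a3 has the longest distance in the other direction, from 1.57 to 66.9 CPM.

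The enzymes of beta-oxidation were lower by less. Of 24 listed genes of fatty acid uptake and oxidation at the minimum, 13 were at least 1.5-fold lower and 0 at least 1.5-fold higher, and the median log2 ratio was -0.64. Over all cardiomyocyte genes tested, 2.31% were that much lower and 8.02% higher. Acaa2, the last thiolase of the mitochondrial cycle, stood at 107 CPM in the chow and 42.9 CPM in the HFD library (log2 ratio -1.32, -1.42 to -1.23). Hadha and Hadhb, both subunits of the trifunctional protein, stood at 390 and 220 CPM in the chow and at 205 and 109 CPM in the HFD library. Acadm, the medium-chain dehydrogenase, stood at 143 and 88.4 CPM, and Acsl1, which activates long-chain fatty acids, at 357 and 224 CPM. Cd36 and Cpt1b differed least among the genes named in this paragraph. Cd36, the fatty acid translocase, stood at 824 and 716 CPM (log2 ratio -0.20, -0.23 to -0.18), and Cpt1b, the muscle carnitine transferase, at 163 and 130 CPM (-0.32, -0.38 to -0.26). Lpl, the lipoprotein lipase, was higher in the HFD library, at 227 and 327 CPM (0.52, 0.48 to 0.57).

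Respiratory chain and tricarboxylic acid cycle genes hardly differed. Of 50 nuclear-encoded respiratory chain subunits at the minimum, 0 were at least 1.5-fold higher or lower, with a median of -0.11, and the 18 genes of the tricarboxylic acid cycle gave 0 as well, with a median of -0.06. Pyruvate dehydrogenase genes other than Pdk4 also gave 0 of 10 in either direction. Of 17 genes of ketone body and branched-chain amino acid catabolism, 2 were at least 1.5-fold lower and 0 higher, with a median of -0.23. Glycolysis and glucose uptake had 20 genes at the minimum, of which 3 were at least 1.5-fold lower: Ldhb, Gapdh and Eno1. Over all cardiomyocyte genes tested, 2.31% were that much lower. Scd4, a desaturase found mainly in heart, stood at 76.6 and 20.8 CPM (log2 ratio -1.88, -2.01 to -1.75), and Acacb, whose product malonyl-CoA holds back carnitine transfer, at 375 and 249 CPM. Cat, the catalase gene, stood at 49.5 and 25.98 CPM.

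Promoter letters of the lower genes are shown for Ucp3 and Cpt1a, since AGGTCA is the unit that PPAR and other nuclear receptors bind. The stretches are the RefSeq promoter (GRCm38.p6) from 120 to 21 bases before the annotated start, outside annotated exons, with AGGTCA on either strand in capitals.
Ucp3 (chr7:100472871-100472970, plus strand): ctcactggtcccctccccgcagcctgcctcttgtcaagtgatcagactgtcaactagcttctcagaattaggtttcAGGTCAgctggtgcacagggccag
Cpt1a (chr19:3323181-3323280, plus strand): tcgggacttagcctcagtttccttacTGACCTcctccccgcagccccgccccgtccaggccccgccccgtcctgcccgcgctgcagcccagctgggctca
Within the window from 250 bases before to 50 after the start, AGGTCA was found in 6 of the 19 listed PPAR targets with a promoter entry (31.58%) and in 18.13% of all 27025 genes. Among the named genes it was found in 1 of the 7 lowest with an entry (14.29%) and in 3 of the 10 highest (30%). The PPAR response element itself, a direct repeat of AGGTCA with 1 free base between the copies, was found in 0 of the 19 and in 0.0481% of all genes. A match is a description of letters, not a binding site.

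The 12 highest cardiomyocyte genes in the HFD library were of several kinds. They were Nr4a3, Nr4a1, Oser1, Dct, Atf3, Ryr3, Fgf12, Tmem163, Lpin1, Fosl2, Sik1 and Irs2. Among them Nr4a1, Nr4a3, Atf3 and Fosl2 are transcription factors of the immediate early kind, which cells switch on within minutes of a stimulus. Nr4a3, an orphan nuclear receptor induced by cyclic AMP and exercise, stood at 1.57 CPM (47 UMIs) in the chow and 66.9 CPM (2045 UMIs) in the HFD library, a log2 ratio of 5.40 (5.00 to 5.87). Its gene spans chromosome 4 from 48045153 to 48086447 on the plus strand. Nr4a1, its relative, stood at 9.36 and 81.1 CPM (3.11, 2.94 to 3.30). In thinned nuclei, Nr4a3 had a UMI in 0.381% of chow and 11.8% of HFD cardiomyocytes, while the other cells gave 0.906% and 3.33%. The thinned share with Nr4a1 was 1.86% and 14.996% in cardiomyocytes, and 3.58% and 7.30% in other cells. Median depth in other cells was 4078 and 4135.5 UMIs.

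Atf3, a stress-induced bZIP factor, stood at 4.56 and 28.4 CPM (log2 ratio 2.63, 2.38 to 2.91). Fosl2, a partner of JUN proteins, stood at 17.8 and 65.5 CPM (1.88, 1.74 to 2.02). Klf2, a zinc finger factor, stood at 12.5 and 29.8 CPM. Of 14 listed immediate early genes at the minimum, 8 were at least 1.5-fold higher and 0 lower in the HFD library, with a median of 0.75. Over all cardiomyocyte genes tested, 8.02% were that much higher and 2.31% lower. The list was not uniform, since Jun (48.8 and 48.3 CPM), Jund (36.2 and 33.1 CPM) and Ier3 (11.0 and 11.4 CPM) differed little.

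The lists of signalling genes had medians near 0. Of 28 genes of the insulin, IGF and FoxO axis at the minimum, 4 were at least 1.5-fold higher and 0 lower, with a median of 0.06. Of 24 genes of adrenergic and cyclic nucleotide signalling, 4 were higher and 1 lower, with a median of 0.08, where 8.02% of all genes were higher. Single members and other named genes differed more. Sik1, a salt-inducible kinase that restrains CREB coactivators, stood at 24.1 CPM in the chow and 82.7 CPM in the HFD library (log2 ratio 1.78, 1.66 to 1.90). Irs2, an adaptor of the insulin receptor, stood at 41.6 and 134 CPM (1.69, 1.60 to 1.78), while Insr itself stood at 724 and 734 CPM. Ppargc1a, the PGC1-alpha coactivator of mitochondrial genes, stood at 614 and 1569 CPM (1.35, 1.33 to 1.38). Its thinned share of cardiomyocytes was 67.3% and 82.7%. Lpin1, a phosphatidate phosphatase that also acts with PGC1-alpha, stood at 48.0 and 181 CPM (1.91, 1.83 to 1.996). Oser1, a gene of the oxidative stress response, stood at 8.96 and 69.5 CPM (2.95, 2.77 to 3.14). Fbxo32, the atrogin ubiquitin ligase, stood at 64.6 and 130 CPM. The phosphodiesterases Pde10a (18.4 and 86.0 CPM), Pde3b (17.0 and 49.4 CPM) and Pde1a (41.8 and 106 CPM), which break down cyclic nucleotides, were also higher. Of the 12 highest genes, Dct, the melanin enzyme dopachrome tautomerase, stood at 3.398 and 22.5 CPM.

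The promoters of Nr4a3 and Nr4a1 are shown because TGACG, the core of the cyclic AMP response element, recurs in them. The capitals mark TGACG on either strand, in RefSeq promoter bases before the start and outside annotated exons.
Nr4a3 (chr4:48045055-48045152, plus strand): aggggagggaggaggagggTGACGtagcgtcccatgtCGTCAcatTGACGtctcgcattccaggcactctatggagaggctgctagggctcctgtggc
Nr4a1 (chr15:101266726-101266825, plus strand): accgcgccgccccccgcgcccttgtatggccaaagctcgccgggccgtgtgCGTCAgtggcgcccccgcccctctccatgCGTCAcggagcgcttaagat
These stretches hold 3 and 2 matches. Over the whole window, TGACG was found in 5 of the 10 highest named genes with a promoter entry (50%), in 13 of 19 listed immediate early genes (68.42%) and in 23.05% of all genes. It was also found in 7 of the 19 listed PPAR targets with an entry (36.84%), and in 1 of the 7 lowest named genes with an entry (14.29%). The PPAR target list had a median log2 ratio of -0.87 over its members at the minimum in cardiomyocytes. The full palindrome TGACGTCA, which contains TGACG, was found in 0 of the 10 highest named genes. It was found in 3 of the 19 immediate early genes (15.79%) and in 2.031% of all genes. The E-box CACGTG was found in 2 of the 10 (20%), against 8.093% of all genes.

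Some cholesterol genes were higher in the HFD library in cardiomyocytes and other cells. Low sterol releases SREBP2, which switches on the synthesis enzymes. Of 22 listed genes, 16 lay under the minimum in cardiomyocytes, and of the 6 at it, 4 were at least 1.5-fold higher and 0 lower, with a median log2 ratio of 0.66. Over all cardiomyocyte genes tested, 8.02% were that much higher. Cyp51, the lanosterol demethylase, stood at 6.43 and 19.5 CPM (1.60, 1.36 to 1.84). Srebf2, which encodes SREBP2, stood at 40.3 and 60.5 CPM. In other cells 6 of 10 were at least 1.5-fold higher, where 1.38% of all 10245 genes were (the other 12 listed genes lay under the minimum), with a median of 0.66. Medians of the same list were 0.76 in fibroblast-like, 0.63 in blood vessel endothelial-like and 0.83 in endocardial-like nuclei. These classes come from the same pair of libraries.

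**Figure D3:**
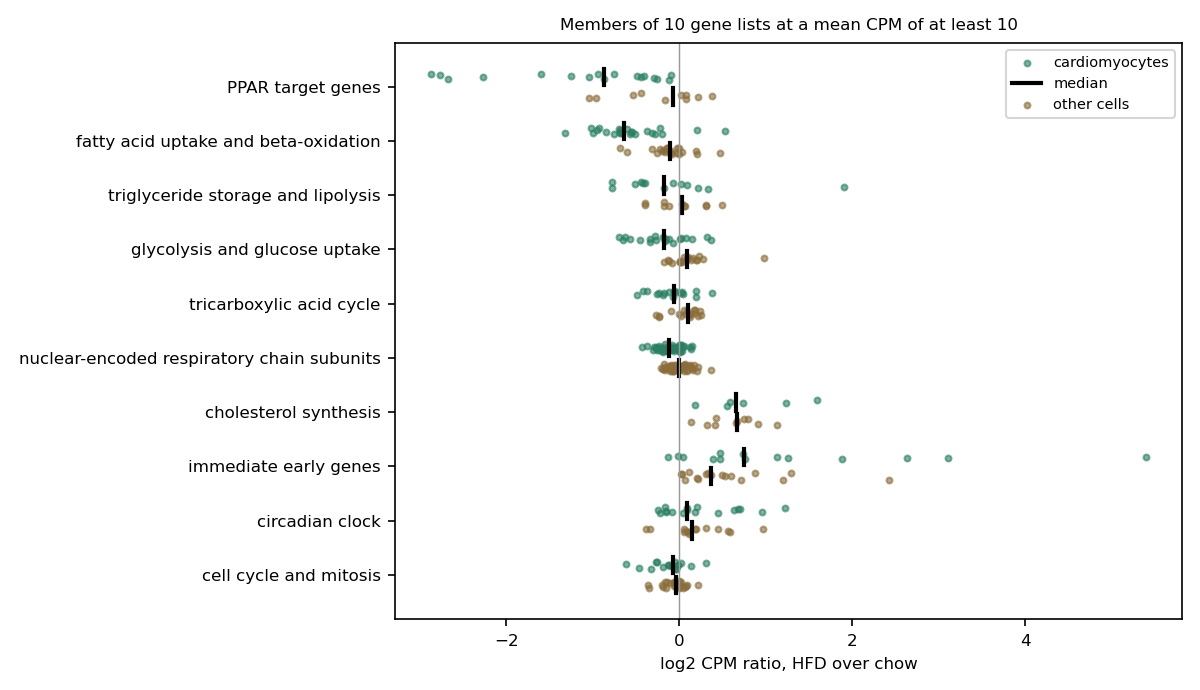
Log2 ratio of CPM (HFD over chow) for each member of 10 gene lists at a mean of at least 10 CPM; green points are cardiomyocytes, brown points other cells, and black bars are medians. The PPAR target and fatty acid lists lie to the left in cardiomyocytes (medians -0.87 and -0.64), the cholesterol list to the right in both groups, and the respiratory chain list stays around 0.

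Clock and sarcomere lists had medians near 0, and the share of contractile genes that were higher lay near the 8.02% of all genes. Of 17 clock genes, 5 were at least 1.5-fold higher, among them Per1 (17.3 and 40.6 CPM) and Rora (1100 and 1703 CPM), with a median of 0.09. Of 33 contractile and Z disc genes, 4 were at least 1.5-fold higher and 2 lower. Actn2, the alpha-actinin of the Z disc, stood at 1522 and 2844 CPM, and Xirp2, an actin-binding repeat protein, at 167 and 351 CPM. Tnnc1, the cardiac troponin C, stood at 837 and 382 CPM (log2 ratio -1.13, -1.16 to -1.10). Tnni1, the troponin I of the fetal heart, stood at 52.4 and 14.4 CPM (-1.86, -2.02 to -1.71). Kcnd2, which encodes a channel of the transient outward current, stood at 1037 and 2056 CPM. Of the remaining lowest named genes, Plppr1 stood at 44.3 and 11.3 CPM, Impa2, an inositol phosphatase, at 98.7 and 31.5 CPM, Smim5 at 32.2 and 11.7 CPM, and Irx3, a homeobox factor of the conduction system, at 19.2 and 6.74 CPM. Mitotic genes at the minimum differed little: of 18, 1 was at least 1.5-fold lower (Ect2) and 0 higher, while 10 lay under it. Of 30 S phase genes, 19 lay under it, and 0 of the other 11 differed by as much. A cluster led by Dtl, Atad2 and Hells held 168 of 4024 chow and 57 of 3659 HFD cardiomyocytes, and another led by Ect2 held 80 and 54. A cluster led by Top2a, mostly called doublets, held 11 and 15, and a cluster with Cenpf among its 10 leading genes 32 and 70. These shares were not tested.

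Part of the higher side moved with other cell material in the cardiomyocyte sums. The summed level of 12 fibroblast markers in cardiomyocytes was 2045 CPM in the chow and 3030 CPM in the HFD library, with 8 of 12 at least 1.5-fold higher. The 12 blood vessel endothelial markers summed to 273 and 504 CPM, with 11 of 11 at the minimum at least 1.5-fold higher. Over all cardiomyocyte genes tested, 8.02% were that much higher. Clusters that held another cell type's or atrial markers, or were mostly called doublets, held 9.99% of chow and 19.6% of HFD cardiomyocytes. Without these 11 clusters, 86 of 8139 genes (1.06%) were higher by 2-fold or more and 52 (0.639%) lower. The fibrillar collagen and matrix list had 24 of 32 genes at least 1.5-fold higher in all cardiomyocytes and 7 of 21 without those clusters, where 3.35% of all genes were that much higher and 3.92% lower. Without them, Pdk4 had a log2 ratio of -2.69, Txnip -3.05, Nr4a3 5.44, Lpin1 2.05 and Ppargc1a 1.52, and the PPAR target and fatty acid lists had medians of -0.80 and -0.55.

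Since the cardiomyocytes of each library lay mostly in clusters of their own, the log2 ratios were also computed with both libraries weighted to the same mix of clusters. In that setting a library's few nuclei in the other library's clusters carry much of the weight. Most leading genes then differed by less: Nr4a3 had 2.58 in place of 5.40, Pdk4 -2.21, Txnip -2.30 and Lpin1 1.21. Nr4a1 had 2.95. Atf3 (0.69), Irs2 (0.63), Ucp3 (-0.91), Acaa2 (-0.78), Tnni1 (-0.72) and Smim5 (-0.81) lay under 2-fold, and Fgf12 (-0.26) and Tmem163 (-0.35) changed direction. How far the size of the differences follows the separate clusters was not tested further.

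A cluster with Fgf12, Tmem163 and Ryr3 among its 10 leading genes had 7 atrial markers among its top 60 genes, and held 14 chow nuclei (0.348% of cardiomyocytes) and 81 HFD nuclei (2.21%). Another cluster, led by Myl7 and globin genes with a median of 2148 UMIs, had 4 of them and held 33 chow and 45 HFD nuclei. Fgf12, a modulator of sodium channels, stood at 56.6 and 289 CPM over all cardiomyocytes, and at 5.56 and 13.2 CPM without the mixed and atrial clusters. Ryr3, a calcium release channel, stood at 8.06 and 46.8 CPM, and at 6.31 and 8.56 CPM without them. Tmem163, a zinc transporter, stood at 5.80 and 27.5 CPM, and at 0.669 and 2.40 CPM without them. All 3 genes then lay under the mean of 10 CPM, so that no ratio is read there. Atrial light chains Myl7 (6.80 and 20.7 CPM) and Myl4 (14.4 and 37.1 CPM) were higher over all cardiomyocytes, while Nppa, the atrial natriuretic peptide, stood at 57.2 and 66.6 CPM. The sources used here do not say how much atrium each preparation held.

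In the other cells few genes passed the same limit. Of 10245 genes, 19 (0.185%) were higher by 2-fold or more and 11 (0.107%) lower, with a median log2 ratio of -0.0043. Among the 7996 genes at least as abundant there as in cardiomyocytes, the counts were 12 (0.15%) and 10 (0.125%). Fibroblast-like nuclei made up 47.0% of other cells in the chow and 46.0% in the HFD library, blood vessel endothelial-like nuclei 17.2% and 12.9%, and endocardial-like nuclei 9.51% and 12.0%. Nr4a3 (4.34 and 23.6 CPM), Egr3 (13.8 and 34.0 CPM) and Nr4a1 (18.2 and 41.8 CPM) led the immediate early list, of which 6 of 17 were at least 1.5-fold higher, against 1.38% of all genes there. Ppargc1a stood at 26.2 and 57.1 CPM in other cells, and at 23.3 and 59.0 CPM in fibroblast-like nuclei. It was far more abundant in cardiomyocytes of both libraries, and the part of cardiomyocyte RNA in these values was not tested.

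Fibroblast-like nuclei numbered 1078 in the chow and 2120 in the HFD library. Pi16, a gene of adventitial-type fibroblasts, stood at 38.1 and 92.8 CPM (log2 ratio 1.28, 1.05 to 1.52, and 0.88 with a common cluster mix), and Ugdh, which makes the sugar precursor of hyaluronan, at 131 and 265 CPM (1.01, 0.89 to 1.14), a ratio of 0.64 with both libraries weighted to the same cluster mix. Kcnc2, a potassium channel, stood at 12.6 and 63.8 CPM, but it was more abundant in endocardial-like nuclei (409 and 717 CPM), whose number was 218 in the chow and 555 in the HFD library, and the part of their RNA was not tested. A cluster with Efhd1, Duox1, Scara5, Gfpt2 and Pi16 among its 10 leading genes held 156 chow and 501 HFD nuclei, and within it Pi16 stood at 112 and 255 CPM. Lower in fibroblast-like nuclei were Gria4, a glutamate receptor subunit (99.3 and 44.8 CPM), and Tll2, a tolloid protease (137 and 63.8 CPM, a log2 ratio of -1.10 and of -0.84 with a common cluster mix). Of 36 matrix genes at the minimum in other cells, 2 were at least 1.5-fold higher: Tnc (110 and 179 CPM) and Lox (10.5 and 16.2 CPM). Over all genes in other cells, 1.38% were that much higher.

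Blood vessel endothelial-like nuclei numbered 395 and 593, so that intervals were wide. Gfpt2, which feeds the hexosamine pathway, stood at 19.3 and 63.7 CPM (1.71, 1.17 to 2.32), and C1qtnf7 at 24.5 and 76.3 CPM. Both were far more abundant in fibroblast-like nuclei, where Gfpt2 stood at 291 and 511 CPM and C1qtnf7 at 518 and 904 CPM, and both were also higher in HFD cardiomyocytes (10.8 and 38.5 CPM, and 20.8 and 74.9 CPM). The part of fibroblast RNA in the endothelial values was not tested. B2m, the light chain of class I histocompatibility molecules, stood at 198 and 84.3 CPM (-1.23, -1.49 to -0.97), and its log2 ratio was -0.75 in nuclei with at most 1% mitochondrial UMIs. Its partner H2-K1 stood at 211 and 106 CPM. The H2 genes are near-identical copies, so that single members are uncertain. In 218 and 555 endocardial-like nuclei, Apold1, an endothelial early gene, stood at 17.0 and 67.7 CPM (1.97, 1.36 to 2.70), and Adgre5, an adhesion receptor, at 322 and 143 CPM. Inhba, an activin subunit, stood at 13.1 CPM (17 UMIs) and 46.6 CPM (141 UMIs), but had a log2 ratio of -1.99 in nuclei with at most 1% mitochondrial UMIs. The 2 endocardial-like clusters had median mitochondrial shares of 2.65% and 2.49%. That limit therefore left out most of these nuclei, and the change of sign rests on few UMIs. Hbb-bs, a globin gene of red cells, stood at 114 and 290.5 CPM over all endocardial-like nuclei, and also at 90.02 and 185 CPM in fibroblast-like and 193 and 328 CPM in blood vessel endothelial-like nuclei.

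Slc15a2, Tpm3-rs7 and Glo1 were lower in the HFD library in cardiomyocytes and in each of 6 classes of other cells, with an interval that includes 0 for Glo1 in pericyte-like nuclei. Slc15a2, a peptide transporter on chromosome 16, had 495 UMIs in chow and 16 in HFD cardiomyocytes (16.5 and 0.524 CPM, a mean under the 10 CPM minimum). In blood vessel endothelial-like nuclei it had 83 and 4 UMIs, in endocardial-like nuclei 21 and 0, and in fibroblast-like nuclei 41 and 7. Tpm3-rs7 on chromosome 14, a tropomyosin-related sequence whose reads may be shared with its parent gene, had 224 and 29 UMIs in other cells (20.7 and 1.25 CPM). Glo1, the glyoxalase that clears methylglyoxal, stood at 32.8 and 14.99 CPM in cardiomyocytes, 37.9 and 17.3 CPM in fibroblast-like and 51.9 and 21.1 CPM in blood vessel endothelial-like nuclei. Its log2 ratios in these were -1.13, -1.13 and -1.29. Glo1 lies on chromosome 17 from 30584936 to 30626871, and Btbd9 on the same chromosome from 30215524 to 30576488. Btbd9 had log2 ratios of -0.40 in cardiomyocytes, -0.28 in fibroblast-like, -0.94 in blood vessel endothelial-like and -0.76 in endocardial-like nuclei. Pdia5, on chromosome 16 like Slc15a2, had 0.18, -1.09, -0.36 and -1.64 in the same order. A part of gene position in these differences was not tested. Celf4, an RNA-binding protein and among the lowest genes of other cells (37.2 and 11.25 CPM), differed unevenly. Epicardial-like nuclei gave 229 UMIs of it in 124 chow nuclei and 17 UMIs in 333 HFD nuclei, while blood vessel endothelial-like nuclei gave 13.4 and 18.1 CPM.

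**Figure D4:**
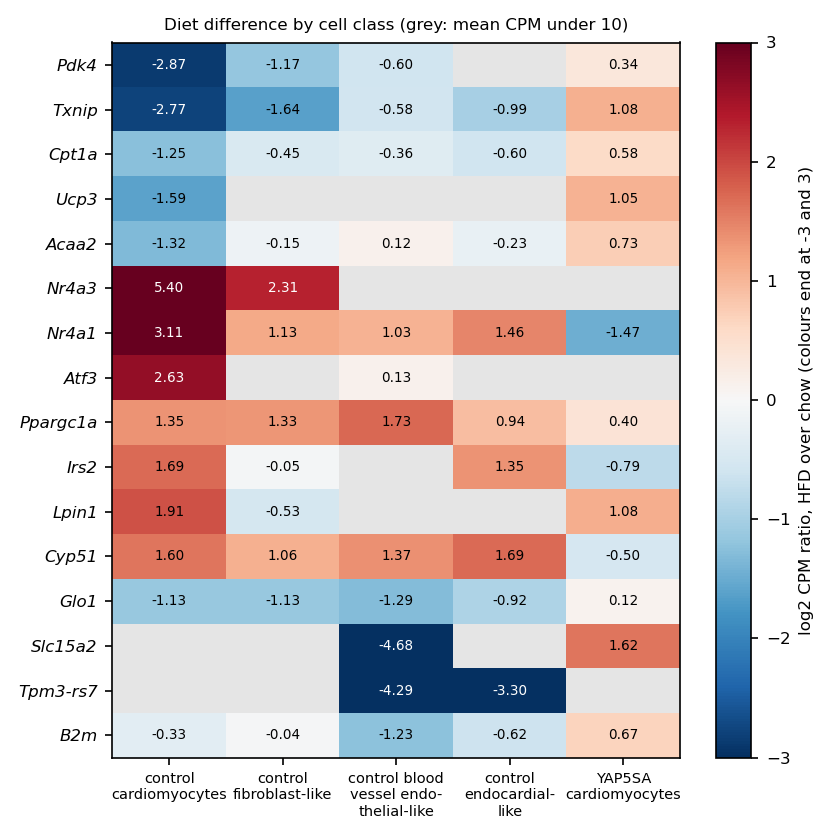
Log2 ratio of CPM (HFD over chow) of 16 genes in control cardiomyocytes, 3 classes of other control cells and YAP5SA cardiomyocytes; red is higher and blue lower in the HFD library, and grey marks a mean under 10 CPM. Pdk4 and Txnip are blue in control and red in YAP5SA cardiomyocytes, Cyp51 is red in every control class, and Glo1 is blue in every control class.

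The libraries of YAP5SA hearts hold the same diet contrast by title and share no library with the controls. They differed in Xist, with 298 UMIs in the chow and 154625 UMIs in the HFD library, and in Ddx3y, with 4760 and 17 UMIs. Sex and diet therefore cannot be told apart in that pair. Most of the leading control differences were not seen in the same direction there. Pdk4 in YAP5SA cardiomyocytes stood at 260 CPM in the chow and 328 CPM in the HFD library (log2 ratio 0.34), and Txnip at 235 and 495 CPM (1.08). Nr4a3 stood at 9.15 and 1.12 CPM (-3.01) and Nr4a1 at 39.0 and 14.0 CPM (-1.47). Of the 12 lowest named genes of control cardiomyocytes, 6 were at least 1.5-fold higher in the YAP5SA HFD library and 2 lower. Of the 12 highest, 6 were at least 1.5-fold lower and 3 higher. Over the 2936 genes at least as abundant in cardiomyocytes, 19.07% were that much higher and 4.189% lower in that pair. Lpin1 (34.6 and 73.4 CPM), Fgf12 and Tmem163 kept their direction at 1.5-fold or more. So did Plppr1, Tnni1 and Tpm3-rs7, the last with 626 and 20 UMIs in YAP5SA cardiomyocytes. Slc15a2 was higher there instead (7.51 and 23.1 CPM), and Glo1 hardly differed (13.5 and 14.6 CPM).

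Over all 36 cardiomyocyte genes at least 2-fold lower in the control HFD library, 11 were at least 1.5-fold higher and 3 lower in the YAP5SA pair (30.6% and 8.33%), where 19.07% and 4.189% of the 2936 genes were. Over the 43 higher genes the counts were 9 and 9. Scaling by TMM shifted the YAP5SA log2 ratios by -0.16 and DESeq2 size factors by -0.18, and with either scaling 5 rather than 3 of the 36 were lower. The median of the PPAR target list was -0.87 in the control and 0.61 in the YAP5SA pair, and that of the cholesterol list 0.66 and -0.53. In that pair, 12.2% of 9252 genes were at least 1.5-fold higher and 3.88% lower. The difference between both diet contrasts was not tested, since each group holds 1 library, and the part of sex or of a wrong diet label was not tested.

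**Figure D5:**
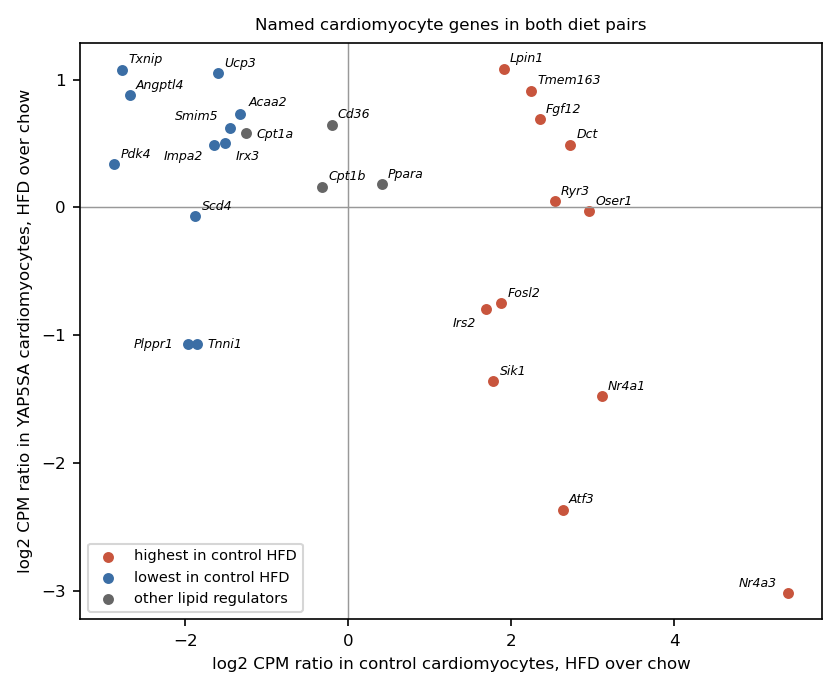
Log2 ratio of CPM (HFD over chow) of the named cardiomyocyte genes in the control pair (horizontal axis) and the YAP5SA pair (vertical axis), 1 library per group; points are the 12 highest genes, 11 of the 12 lowest and other lipid regulators. Txnip, Ucp3 and Angptl4 lie upper left, and Nr4a3, Atf3 and Nr4a1 lie lower right.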

How the data were processed

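Counts came from 10x Genomics 3′ v3 single-nucleus libraries. The deposited matrices hold raw UMI counts per gene and nucleus, made with Cell Ranger 7.1.0 on mm10, per the submitters' processing notes. Neither the gene annotation nor the handling of introns is given in the sources used here. UMIs were summed over the nuclei of each group and library and divided by the sum over 32285 mouse features, to give CPM. The log2 ratio used a prior of 0.5 counts, and its interval is the exact conditional binomial 95% interval. The 6 added sequences were left out. The fold and interval code was tested on simulated counts. With 1 library per group no test between diets was possible, and leaving out a replicate was not possible.

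Nuclei of each group were clustered with the Leiden algorithm (scanpy 1.11.5, igraph 0.11.9) over both control libraries without integration, and named from marker lists as described. Doublets were called with Scrublet but kept, as the nucleus rule has no such step. Called doublets were 5.62% of chow nuclei (top scores, because the automatic threshold marked 0.0785%) and 4.51% of HFD nuclei. Where shares of nuclei with a UMI are given, each nucleus was thinned to 2000 UMIs. Of 929 listed genes 927 matched a feature. Coordinates come from GENCODE vM21, and promoters from RefSeq (GRCm38.p6). Promoters were matched for 10 of the 12 highest and 7 of the 12 lowest genes, 19 of 23 immediate early genes and 19 of 25 PPAR targets. The motifs were searched on both strands. Members, lists and named genes were chosen with earlier results of these data known. Named are the 12 highest and 12 lowest cardiomyocyte genes by the interval bound nearest 0, the 10 and 10 of other cells and 5 and 5 per class by the same rule, of which the text gives a selection, plus list members and 8 fixed lipid regulators. Xist, Y-linked genes and predicted gene models were not named, and some listed genes are not reported here. Alternatives used edgeR 4.0.16 (TMM) and DESeq2 1.42.0 (size factors).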

Additional observations from a re-analysis of the deposited data

Results flagged for a closer look

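These cardiomyocyte genes and lists had opposite directions in the control and the YAP5SA diet pair, each with 1 library per group. The difference between the pairs was not tested. In the YAP5SA pair the libraries also differ in sex by Xist and Ddx3y, and the part of that was not tested. Among genes lower in the control HFD library, the log2 ratio of HFD over chow in YAP5SA cardiomyocytes was 1.08 for Txnip, 0.88 for Angptl4, 1.05 for Ucp3, 0.62 for Smim5 and 0.73 for Acaa2. Among genes higher in the control HFD library it was -3.01 for Nr4a3, -1.47 for Nr4a1, -2.36 for Atf3, -0.75 for Fosl2, -1.36 for Sik1 and -0.79 for Irs2. The medians in YAP5SA cardiomyocytes were 0.61 for the PPAR targets, 0.57 for fatty acid uptake and oxidation, -0.53 for cholesterol synthesis and -0.45 for immediate early genes.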

How the results depend on the processing

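No paired analysis was possible because each diet group holds 1 library. Of 923 values of named genes under an alternative, 832 stayed inside the interval of the reported value and 3 changed sign. Fgf12 (-0.26) and Tmem163 (-0.35) did so with both libraries weighted to the same cluster mix. Inhba in endocardial-like nuclei (-1.99) did so with at most 1% mitochondrial UMIs, a limit that left out most of those nuclei. The values under a minimum of 1 or 50 CPM are among the 832 and could not move, since a minimum changes no ratio. Of 961 list medians, 858 stayed within the median margin of their members' intervals.

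Counts of cardiomyocyte genes at least 2-fold higher and lower in the HFD library were 254 and 40. With a minimum of 1 CPM they were 752 and 129, with 50 CPM 74 and 13. Among genes at least as abundant in cardiomyocytes (43 and 36) they were 100 and 91 at 1 CPM, and 21 and 13 at 50 CPM. The higher count was 104 with stricter limits on the nucleus rule, 162 with the mean CPM of each nucleus, and 86 both with a common cluster mix (95 lower) and without mixed and atrial clusters, an alternative chosen after seeing the data. The cluster mix draws each library's weight from clusters where it has few nuclei.

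Of 66 named values at or past 2-fold, 20 fell short of it in some setting.

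In other cells the counts (19 and 11) were 172 and 153 at 1 CPM and 2 and 1 at 50 CPM. Among genes at least as abundant there (12 and 10), they were 126 and 121 at 1 CPM and 1 and 0 at 50 CPM. The lower counts were 23 and 20 with at most 1% mitochondrial UMIs and 19 and 18 with the mean CPM of each nucleus. With a common cluster mix 10 were higher and 20 lower, and 4 of the more abundant genes were higher. The cause of these shifts was not tested, beyond the number of genes tested at each minimum.

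The cardiomyocyte share was 61.7% in chow and 41.8% in HFD nuclei without called doublets, 73.6% and 54.5% with at most 1% mitochondrial UMIs, and 41.6% in the HFD library with the stricter limit. Of the 36 lower cardiomyocyte genes, 5 were also lower in the YAP5SA pair with TMM and 5 with DESeq2 size factors. Genes with few UMIs in small classes have intervals too wide to read a size from.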
